A study of Homo sapiens with 2 samples.

Results

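Merged peaks are accessible regions that were 1 continuous peak in the SMARCA4 knockdown library and 2 or more separate peaks in the control library, and split peaks are the converse. On chromosomes 1 to 22 and X, every knockdown peak that shared at least 1 bp with 2 or more control peaks was taken as merged, and every control peak that shared at least 1 bp with 2 or more knockdown peaks as split. The members were thus chosen by the measured peak outlines of both libraries, so their numbers and outlines are given as a description. This gave 1133 merged peaks among 41540 knockdown peaks and 791 split peaks among 55124 control peaks, or 1924 of 96664 peaks in all. The short peaks of the other library that lie under a merged or split peak are called its constituents. The comparison set consisted of 30358 matched pairs, in which 1 control peak and 1 knockdown peak overlapped each other and no further peak.

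Accessible chromatin was mapped by ATAC-seq, which uses a transposase to tag DNA that is not covered by nucleosomes, in Z-138, an established human mantle cell lymphoma line. Each group is 1 library: cells with a control shRNA, and cells with an shRNA against SMARCA4, both cultured with doxycycline. The labels name neither ibrutinib nor venetoclax for these libraries, although the series' design concerns the response to these drugs. Peak names in both lists carry the term DMSO, a common solvent. A single library stands for each group, so the groups cannot be compared by a test. Intervals below are exact (Clopper-Pearson) 95% intervals that cover counting error over peaks only. Neighbouring peaks, and reads copied from 1 molecule, are not independent. Neither the knockdown nor the identity of the line was checked here, since the peak lists hold no RNA or protein and no gene annotation of their build was used.

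SMARCA4 is the ATPase of SWI/SNF remodelling complexes, which slide and evict nucleosomes and so keep enhancers and promoters open. An open regulatory element is often flanked by positioned nucleosomes, and further openings may lie in the linker DNA next to it. A peak caller reports such a cluster as 1 peak or as several, depending on whether the signal between the openings stays above its limit. The places where the libraries disagree on this are therefore places where the outline of an open region differed between the lists. Both lists had a peak there, but the 1 bp rule also admits constituents that the undivided peak barely overlaps.

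Both lists were resolved to similar distances. The closest neighbours were 63 bp apart in the control list (36 pairs) and 65 bp apart in the knockdown list (45 pairs), so shorter interruptions are not visible. Read totals are not in the files, but fold enrichment and p-value together fix the number of reads stacked at each summit and the expected background. The recovered values give the knockdown library 1.42 times the reads of the control, or 9.76 M against 6.89 M under an assumed genome of 2.7 Gb. The lowest summit in the control list had 3 reads and that in the knockdown list had 4.

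Merged peaks were more numerous than split peaks. They made up 2.73% of all knockdown peaks (2.57 to 2.89%), and split peaks made up 1.43% of all control peaks (1.34 to 1.54%). Among peaks with any partner the shares were 3.43% of 32992 knockdown peaks and 2.37% of 33358 control peaks. Of the 1924 peaks, 58.9% were merged (56.7 to 61.1%), and merged peaks outnumbered split ones on 22 of 23 chromosomes. The size of this surplus rested on how the lists were limited. With the control list reduced to the length of the knockdown list there were 783 merged and 750 split peaks, a merged share of 51.1% whose interval, 48.5 to 53.6%, includes equality. With summits of at least 8 reads in the control and the depth-equivalent of 10.7 reads in the knockdown list there were 764 and 327, or 70.0% merged (67.2 to 72.7%). How far depth and the number of weak control peaks contribute to the surplus was not tested.

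Nearly all members had 2 constituents. Of the merged peaks 1097 covered 2 control peaks and 36 covered 3, and of the split peaks 779 covered 2 knockdown peaks and 12 covered 3. Together they formed 1831 separate sites. In 90 of these sites the outlines were staggered, so that a merged peak overlapped a split peak. These chained sites held 91 merged and 92 split peaks and are given apart where they change a value.

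The merged peaks with the most constituents were single broad openings over a row of 3 control peaks. The one of highest fold lay on chromosome X from 108779728 to 108780455 (hg19), with a deposited fold of 17.7 and a summit of 39 reads. Under it the control list had peaks with summits of 14, 10 and 25 reads, separated by gaps of up to 120 bp. The knockdown summit lay 6 bp from that of the strongest control peak, and the outer edges of the row and of the merged peak differed by 15 bp and 14 bp.

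A merged peak on chromosome 2 from 172290243 to 172291210 had a summit of 40 reads over control peaks of 35, 9 and 9 reads. Another on that chromosome, from 178077118 to 178078051, had 41 reads over control peaks of 23, 10 and 14 reads. On chromosome 1, that from 107599171 to 107600173 was 1003 bp wide, with 36 reads over control peaks of 30, 19 and 14 reads and gaps of up to 203 bp. In all 4 of these regions the knockdown summit fell inside the strongest control peak. After scaling for depth, the log2 of knockdown over control was 0.22, -0.23, 0.41 and -0.16 in the order named.

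The merged peaks of highest fold shared another outline, a strong control peak with a weak neighbour on its higher-coordinate side. On chromosome 7 from 64126276 to 64126945 the fold was 21.0 and the summit had 60 reads, over control peaks of 54 and 20 reads. Next came chromosome 3 from 99979500 to 99980093, where 56 reads (fold 20.5) stood over control peaks of 44 and 10 reads. Chromosome 1 held the other two. From 169336916 to 169337566 a summit of 66 reads lay over control peaks of 50 and 20 reads. Between 143913214 and 143913972 a summit of 63 reads lay over peaks of 48 and 12 reads. After scaling for depth the knockdown summit was below that of the strong control peak in all 4 regions. The log2 of knockdown over control was -0.27, -0.08, -0.02 and -0.03 in the order named. Choosing the highest knockdown folds favours regions where the knockdown value is high, so these 4 do not describe the class. The weak neighbour's summit lay between 366 and 443 bp from the merged summit in these 4 regions, and the gaps measured 97 to 116 bp. The side was no general feature: over all 1021 merged peaks with 2 unequal constituents the weaker one had the higher coordinate in 53.5% (50.4 to 56.6%), and over 737 split peaks in 50.9% (47.2 to 54.5%).

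Split peaks with 3 constituents were rarer and lower. The one of highest fold, on chromosome 21 from 27778043 to 27778596, had a control fold of 12.3 and a summit of 20 reads, above knockdown peaks of 7, 10 and 7 reads. On chromosome 1 from 89458043 to 89458822 a control summit of 28 reads stood over knockdown peaks of 13, 19 and 43 reads, of which the last exceeded the control summit also after scaling for depth. A region on chromosome 11 from 65686563 to 65687145 had 16 reads over 9, 14 and 8 reads. The split peak on chromosome 8 from 90569826 to 90570361 had 18 reads over 8, 7 and 9 reads. In the other 3 regions every knockdown summit was below the control summit, even before scaling for depth.

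Among the split peaks of highest control fold, the knockdown list mostly had a lower peak and a small one beside it. On chromosome 4 from 87281111 to 87281582 the control fold was 22.9 with 55 reads, and the knockdown peaks had 34 and 9 reads. Between 40286439 and 40286937 of chromosome 18 there were 58 reads in the control and 12 and 35 in the knockdown list. A further region of that chromosome, from 29080197 to 29080691, had 42 reads in the control and 5 and 15 in the knockdown list. On chromosome 7 from 63774011 to 63774549 the knockdown peaks had 56 and 14 reads against 53 in the control, which after scaling for depth is also lower, by the smallest margin of the 4 (log2 of -0.34). Choosing the highest control folds favours regions where the control value is high, so these 4 do not describe the class.

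**Figure D1:**
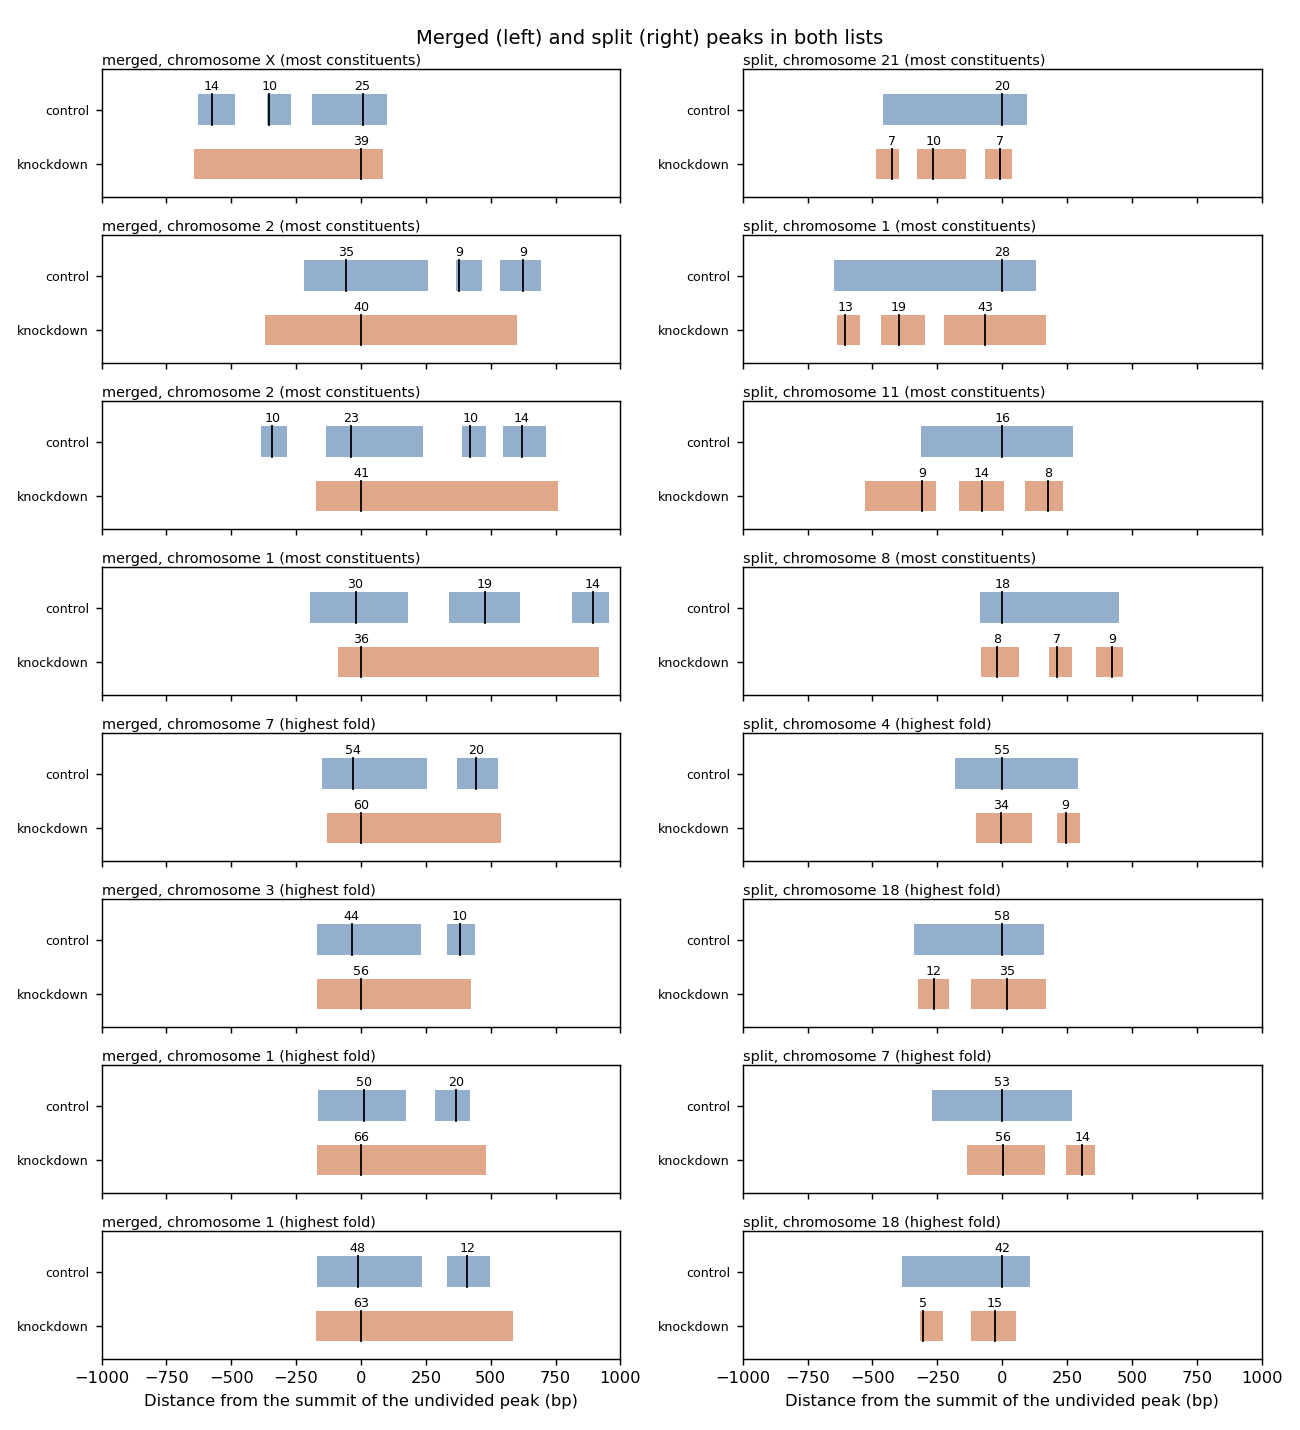
Peaks of both lists around the 8 merged (left) and 8 split (right) regions named for their number of constituents or fold. Boxes are peaks, black lines are summits with the recovered reads printed above, and the x axis is the distance in bp from the summit of the undivided peak, which lies in the knockdown row on the left and in the control row on the right.

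The longest gaps were covered by broad peaks of low fold. Their deposited folds were 5.55 and 6.81 in the merged class, whose median was 9.39, and 6.83 and 7.58 in the split class, whose median was 8.70. The merged peak on chromosome 6 from 158652812 to 158653438 had a summit of 9 reads and spanned a gap of 478 bp between control peaks of 8 and 6 reads. On chromosome 9 from 99180567 to 99181649 a merged peak of 22 reads spanned 428 bp between control peaks of 25 and 10 reads. The split peak on chromosome 5 from 60626811 to 60628094, 1284 bp wide with 26 reads, spanned 408 bp between knockdown peaks of 15 and 32 reads. The split peak on chromosome 2 from 47537373 to 47537973 had 12 reads and spanned 361 bp between knockdown peaks of 8 and 7 reads. Its summit lay in the gap, at a place where the knockdown list had no peak.

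Such long gaps were exceptional. The median gap between neighbouring constituents was 97 bp in merged peaks (interquartile range 75 to 128 bp, 1169 gaps) and 93 bp in split peaks (77 to 120 bp, 803 gaps). Gaps of at most 200 bp made up 93.9% of the former and 95.6% of the latter. Over 300 bp there were 15 merged and 5 split gaps. Most of the gaps are thus shorter than the DNA that 1 nucleosome wraps together with its linker, although the lists contain no fragment lengths from which nucleosomes could be placed. Gap lengths are those of peak outlines, which the caller widens by extending each read. The summits of neighbouring constituents were a median 327 bp apart in merged peaks (257 to 416 bp) and 297 bp apart in split peaks (236 to 394 bp).

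**Figure D2:**
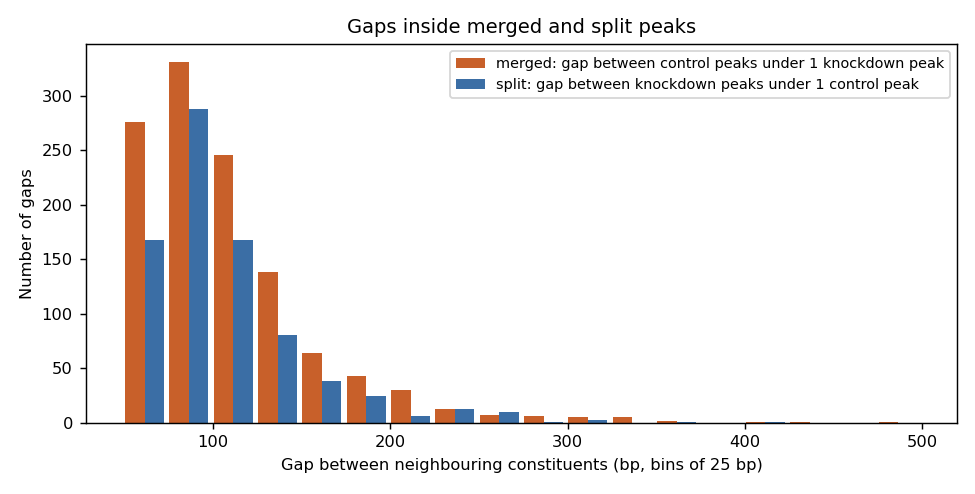
Number of gaps (y axis) by their length in bins of 25 bp (x axis) for control peaks under a merged knockdown peak and knockdown peaks under a split control peak. Both distributions start near the 63 to 65 bp at which the lists cease to separate peaks, are highest from 75 to 100 bp, and end by 478 bp and 408 bp.

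The typical member consisted of a stronger opening and a weaker one beside it. The strongest constituent had a median summit of 16 reads in both classes, and the weakest a median of 9 reads in both. The ratio between them had a median of 1.62 in both classes and was 2 or more in 380 merged peaks (33.5%) and 279 split peaks (35.3%). In members with 2 unequal constituents the stronger was also the wider, with medians of 291 against 151 bp in merged and 268 against 134 bp in split peaks. The classes were alike in the ratio between constituents. Their read numbers are from separate libraries, so that equal medians correspond to lower constituents in the split class after scaling for the depth of the knockdown library.

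The summit of a member mostly stayed with the stronger constituent. It fell inside the strongest one in 827 of 1133 merged peaks (73.0%, 70.3 to 75.6%) and 559 of 791 split peaks (70.7%, 67.4 to 73.8%). In a further 62 merged and 37 split peaks it fell inside a constituent that was tied for the strongest. It fell inside a weaker constituent in 147 merged (12.97%) and 111 split peaks (14.03%). In 83 merged (7.33%) and 77 split peaks (9.73%) the summit lay in a gap, so the highest point of the undivided peak had no peak over it in the other list. The median distance between the member's summit and that of the strongest constituent was 46 bp in merged and 51 bp in split peaks, against 26 bp between the summits of matched pairs. Peaks of matched pairs were much narrower, and the distances were not compared at equal width.

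Members did not reach far beyond the row of their constituents. The width of a merged peak was a median 0.974 times the span from the first to the last constituent, and that of a split peak 0.910 times. Merged peaks exceeded the span in 490 cases (43.2%) and split peaks in 241 (30.5%). The outer edge of a merged peak lay a median 5.5 bp inside the row (interquartile range 50 bp inside to 29 bp outside), and that of a split peak 17 bp inside. In matched pairs the knockdown edge lay a median 3 bp inside the control edge, and the knockdown peak was the wider one in 44.8% of pairs. Gaps came to 130 kb of the 666 kb in merged peaks (19.5%) and 85.6 kb of the 402 kb in split peaks (21.3%). The constituents, counted to their full extent, came to 571 kb and 374 kb.

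Overlap with the weaker constituent was often partial. It was covered in full by 433 of 1021 merged peaks (42.4%) and 259 of 737 split peaks (35.1%). Less than 50% of it was covered in 201 (19.7%) and 197 (26.7%). Members close to the limit of the rule were common, with a smallest overlap of at most 20 bp in 92 merged and 94 split peaks. A further 93 knockdown and 100 control peaks missed the rule by less than 20 bp.

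Just inside the limit, the merged peak on chromosome 9 from 38392467 to 38392773 shared 1 bp with a control peak of 6 reads. Another such merged peak, on chromosome 7 from 2559132 to 2559584, shared 1 bp with a control peak of 12 reads. The split peaks on chromosome 4 from 17551222 to 17551479 and on chromosome 1 from 154946746 to 154947174 each shared 1 bp with a knockdown peak, of 9 and 13 reads. Just outside it, the knockdown peaks on chromosome 21 from 19191541 to 19192214 and on chromosome 6 from 71122789 to 71123551 touched a second control peak, of 15 and 9 reads, without sharing a base. The control peaks on chromosome 14 from 81397131 to 81397785 and on chromosome X from 53123001 to 53123467 touched a second knockdown peak, of 9 and 5 reads, in the same way.

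What became of close neighbours was followed from both sides. The control list held 4922 pairs of neighbouring peaks at most 500 bp apart. In 1169 of them, 23.8% (22.6 to 24.96%), 1 knockdown peak lay over both. In 1598 pairs (32.5%) each peak had its own knockdown partner, in 1594 (32.4%) only 1 of the pair had one, and in 561 (11.4%) neither had. The knockdown list held 4223 such pairs, of which a control peak lay over both in 803, or 19.0% (17.8 to 20.2%). Each had its own partner in 1577 (37.3%), only 1 of the pair had one in 1640 (38.8%), and neither had in 203 (4.81%). Pairs with 1 unpartnered peak thus outnumbered joined pairs in both lists.

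Fusion depended steeply on the gap, and at each gap up to 300 bp the share was the higher one for control pairs. At gaps of up to 100 bp, 41.0% of 1511 control pairs (38.5 to 43.5%) and 34.4% of 1347 knockdown pairs (31.8 to 37.0%) were joined. From 101 to 200 bp the shares were 24.6% (22.7 to 26.5%) and 17.7% (15.9 to 19.5%). From 201 to 300 bp they were 7.64% (5.82 to 9.81%) and 5% (3.40 to 7.06%), with intervals that overlap. From 301 to 500 bp 15 of 728 control and 5 of 548 knockdown pairs were joined. From 501 to 1000 bp there were 0 of 850 and 0 of 692, with exact upper bounds of 0.433% and 0.532%. The presence of any partner changed less with the gap than fusion did: at least 1 of the pair was without one in 38.3% of control pairs at up to 100 bp and 53.9% at 501 to 1000 bp.

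**Figure D3:**
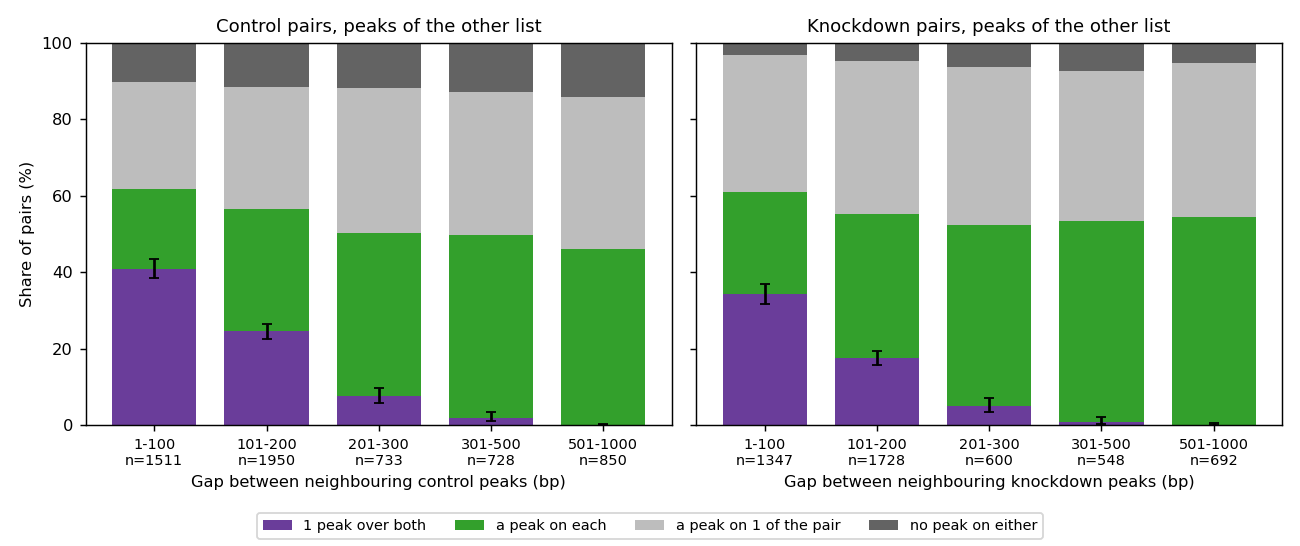
Share of neighbouring peak pairs (y axis, %) by the gap between them (x axis, bp) for pairs of the control list (left) and of the knockdown list (right), divided by the peaks found there in the other list, with exact 95% intervals on the joined share. Joined pairs fall from 41.0% and 34.4% at up to 100 bp to 0 above 500 bp in both panels.

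The heights of the pairs also went with the outcome. At gaps of up to 100 bp, joined control pairs had median summits of 9 and 16 reads and pairs kept apart 10 and 15 reads, close to each other. Pairs in which only 1 peak had a partner had 7 and 11 reads, and pairs without any partner 5 and 7 reads. Knockdown pairs gave 10 and 17 reads when joined, 12 and 19 when kept apart, 8 and 15 with only 1 partner, and 7 and 9 with none. Among control pairs with partners on both sides, 57.4% were joined when the weaker summit had 3 to 5 reads (50.3 to 64.2%) and 33.1% when it had 20 or more (26.3 to 40.5%). The corresponding knockdown shares were 41.0% (30.3 to 52.3%) and 19.6% (14.6 to 25.5%). Over all pairs the direction was the opposite. The joined shares at these 2 heights were 13.5% and 32.6% of control pairs, and 12.4% and 18.9% of knockdown pairs. At 3 to 5 reads, 76.4% of control and 69.8% of knockdown pairs had at least 1 unpartnered peak. At 20 or more, each peak had its own partner in 65.8% and 77.2%, so pairs of strong peaks were mostly preserved as pairs.

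Members were wide and strong beside the rest of their list, which follows in part from the rule, since a peak must reach across a gap. Merged peaks had a median width of 557 bp (430 to 721 bp) against 181 bp for knockdown peaks of matched pairs. Split peaks had 485 bp (372 to 615 bp) against 198 bp for their control counterparts. A fold of at least 10 was reached by 476 merged peaks (42.0%) against 23.1% of all knockdown peaks, and by 258 split peaks (32.6%) against 18.7% of all control peaks. In matched pairs the share was 29.0% of knockdown and 29.9% of control peaks, so that of split peaks is close to its matched pairs. Median summits were 19 reads in merged and 15 reads in split peaks, where all peaks of the 2 lists had 10 and 8 reads and matched pairs 12 and 11 reads.

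The local background was higher as well, at a median of 1.08 reads for merged peaks against 0.578 in matched pairs, and 0.790 reads for split peaks against 0.489. This background is counted over the surroundings of a peak and can include the peak's own reads. It stood at the lowest level of the list in 8 merged peaks (0.706%), compared with 14.6% of all knockdown peaks. Another peak of the same list lay within 500 bp of 254 merged (22.4%) and 194 split peaks (24.5%), compared with 14.1% and 14.3% in matched pairs and 19.2% of all knockdown and 17% of all control peaks. The merged share is thus close to that of its whole list. The 91 merged and 92 split peaks of chained sites have such a neighbour by the rule and are among these counts. Part of the difference from matched pairs therefore follows from the rule.

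The share of members was higher among wider peaks, in each successive width class for merged peaks and up to 999 bp for split peaks. From 400 to 499 bp, 9.79% of knockdown peaks were merged (8.59 to 11.1%) and 8.12% of control peaks were split (7.04 to 9.32%), and these intervals overlap. From 600 to 799 bp the shares were 19.2% (17.2 to 21.3%) and 11.98% (10.2 to 13.97%). From 800 to 999 bp they were 35.9% (31.3 to 40.8%) and 25.5% (20.2 to 31.4%). At 1000 bp or more, 50 of 91 knockdown peaks were merged (54.9%, 44.2 to 65.4%) and 9 of 40 control peaks were split (22.5%, 10.8 to 38.5%). The intervals of merged and split shares did not overlap from 500 to 599 bp, from 600 to 799 bp and at 1000 bp or more. They overlapped narrowly from 800 to 999 bp.

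Summit heights of a member and its strongest constituent were set against each other after scaling by 1.34, the ratio of the lowest backgrounds of the lists. On the log2 scale the median of knockdown over control was -0.15 in merged peaks (interquartile range -0.42 to 0.09) and -0.24 in split peaks (-0.58 to 0.04). In matched pairs it was -0.27 (-0.63 to 0.05). A knockdown summit more than 1.5 times lower was found for 137 merged peaks (12.1%) and 192 split peaks (24.3%), against a background of 27.9% of matched pairs. A knockdown summit more than 1.5 times higher was found for 33 merged (2.91%) and 35 split peaks (4.42%), against 3.23%. The overlap rule favours a high knockdown signal in merged and a high control signal in split peaks, so these values describe the classes and test nothing.

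Most knockdown summits of merged peaks were therefore below depth-scaled equality. A higher scaled summit in the knockdown library was present in 370 of 1133 merged peaks (32.7%) and 218 of 791 split peaks (27.6%), against 27.5% of matched pairs. Outside chained sites the medians were -0.14 over 1042 merged and -0.27 over 699 split peaks. Within them they were -0.29 over 91 merged and 0.08 over 92 split peaks, so chained split peaks had the opposite sign to the class. In those, the knockdown constituent is itself a merged peak that extends over a further control peak.

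The ratio also changed with the height of the control summit. At 8 to 9 control reads the median was 0.04 over 122 merged and -0.10 over 91 split peaks, against -0.25 in matched pairs. At 13 to 16 control reads it was -0.16 over 229 merged and -0.22 over 163 split peaks, against -0.42. At 30 or more it was -0.29 over 150 merged and -0.38 over 91 split peaks, against -0.40. When peaks were instead arranged by knockdown reads, the medians of merged, split and matched peaks were -0.12, -0.27 and -0.20 at 13 to 16 reads. They were -0.14, -0.16 and -0.14 at 17 to 21 reads, and -0.13, -0.10 and -0.18 at 30 or more. In this arrangement the order of the sets changed with height, so no general order is given.

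**Figure D4:**
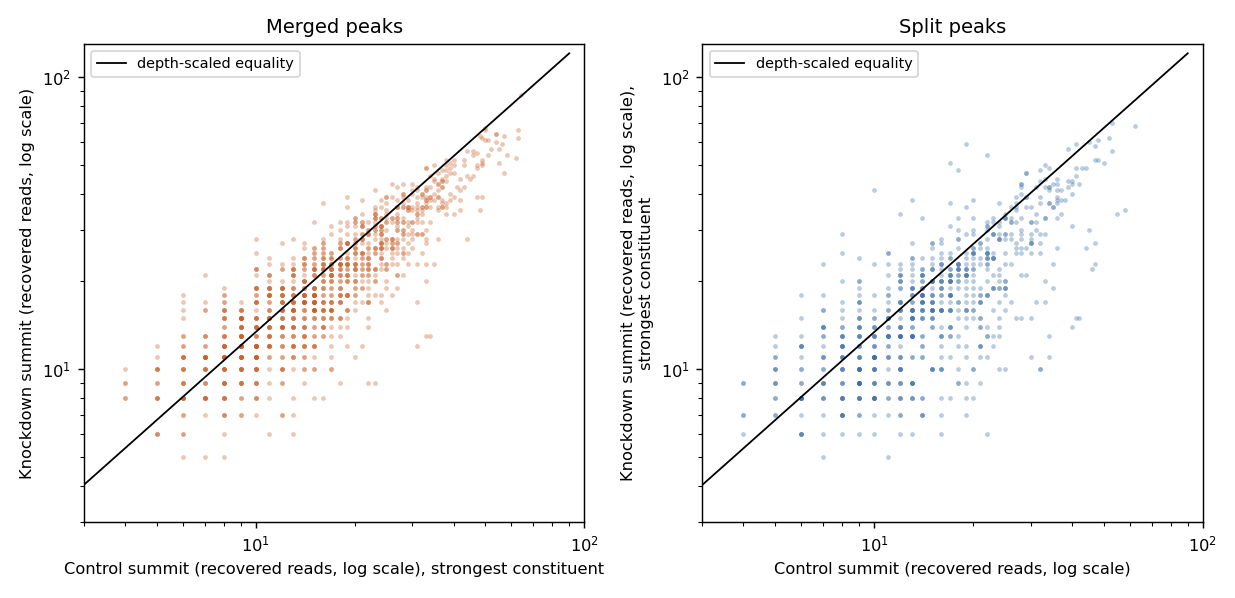
Recovered knockdown summit (y axis, reads, log scale) against control summit (x axis, reads, log scale) for merged peaks (left) and split peaks (right), 1 point per peak, using the strongest constituent on the divided side. The line marks equality after scaling by 1.34. Most points lie below it, with 32.7% of merged and 27.6% of split peaks above.

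Members in which every constituent was strong were few. All control constituents had a fold of at least 10 in 13 merged peaks (1.15%), and all knockdown constituents in 6 split peaks (0.759%). They were picked for naming with their values known. The tallest, on chromosome 7 from 120590515 to 120591415, had a knockdown summit of 87 reads over control peaks of 64 and 48 reads only 81 bp apart. On chromosome 2 from 36824650 to 36825413, 50 knockdown reads stood over control peaks of 35 and 29 reads with a gap of 68 bp. In both, 2 well-separated control summits lay under 1 knockdown outline of nearly the same extent.

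Both of these merged peaks lay above depth-scaled equality with their strongest control peak. All the other merged peaks of this group lay below it, some of them also in unscaled reads. On chromosome 21 from 25259880 to 25260398 the knockdown summit had 13 reads and the control peaks 33 and 24 reads. Among the 6 split peaks, that on chromosome 2 from 220462414 to 220463067 had 22 control reads over knockdown peaks of 24 and 24 reads with a gap of 97 bp. The split peak on chromosome 8 from 12051650 to 12052259 had 24 control reads over 25 and 37 knockdown reads.

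Both classes were spread over all chromosomes. The merged share of knockdown peaks was above the 2.73% of the whole list on chromosome 16 (50 of 1117 peaks, 4.48%, 3.34 to 5.86%), chromosome 19 (57 of 1328, 4.29%, 3.27 to 5.53%) and chromosome 9 (60 of 1547, 3.88%, 2.97 to 4.96%). It was below on chromosome 4 (45 of 2574, 1.748%, 1.28 to 2.33%). Split peaks were above their 1.43% on chromosome 22 (15 of 553, 2.71%, 1.53 to 4.43%), chromosome 19 (34 of 1524, 2.23%, 1.55 to 3.10%) and chromosome 16 (31 of 1424, 2.18%, 1.48 to 3.08%). They were below on chromosome 5 (34 of 3369, 1.01%, 0.700 to 1.41%). Counting error alone would place about 1.15 of 23 chromosomes outside such an interval in each class. The balance of merged against split peaks lay outside the interval on 0 chromosomes, with 57 to 34 on chromosome 19 and 50 to 31 on chromosome 16.

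Chromosomes 16 and 19 also offered more close pairs. Per 1000 control peaks there were 118 pairs within 500 bp on chromosome 16 and 128 on chromosome 19, against 66.0 on chromosome 4. Of these pairs 31.0% were joined by a knockdown peak on chromosome 16 (24.1 to 38.5%), 30.8% on chromosome 19 (24.4 to 37.8%) and 20% on chromosome 4 (14.98 to 25.8%), against 23.8% over the genome. For pairs of the knockdown list the joined shares were 20%, 19.6% and 22.2%, against 19.0%. On chromosome 9, 29.7% of control pairs (23.5 to 36.5%) and 17.4% of knockdown pairs (11.8 to 24.3%) were joined. Within 10 kb of another member of their own class lay 18 merged (1.59%) and 6 split peaks (0.759%). Median distances to the nearest such member were 638 kb and 1047 kb. No equally sparse set of peaks was measured beside these values.

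**Figure D5:**
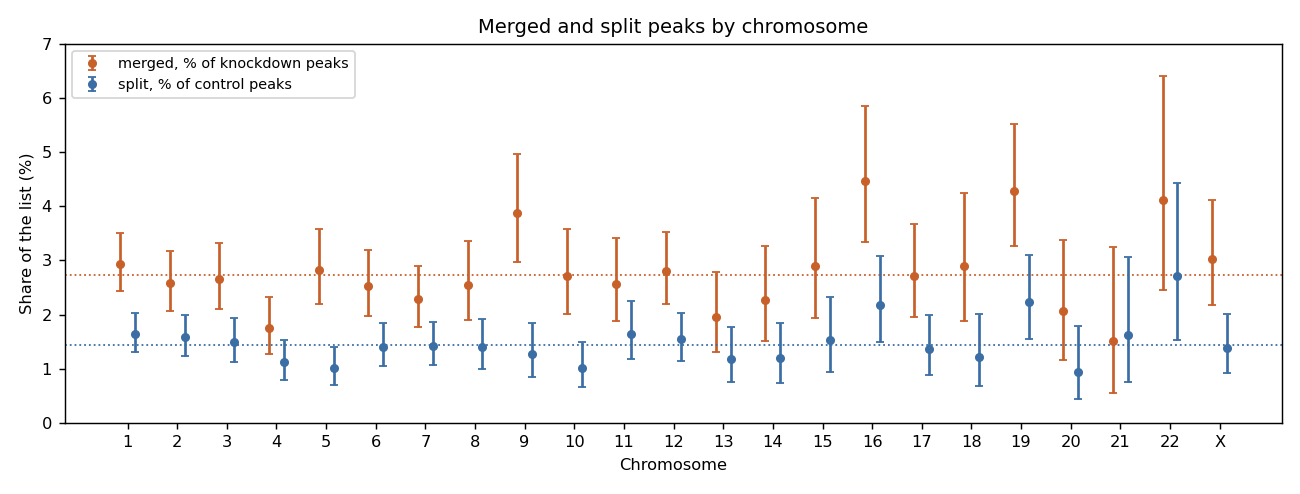
Merged peaks as a share of knockdown peaks and split peaks as a share of control peaks (y axis, %) for each chromosome (x axis), with exact 95% intervals and the genome-wide shares of 2.73% and 1.43% as dotted lines. The merged share is the higher one on every chromosome except chromosome 21, and the intervals of chromosomes 16 and 19 lie above the lines in both classes.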

How the data were processed

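Per the submitters' processing notes, bcl2fastq 2.17.1.14, BWA and MACS2 were used with build hg19; their parameters are not stated there. The authors called peaks in each library separately, and the names of peaks contain the terms sort and rmdup. The deposited fold is the ratio of summit reads to background with 1 read added to each. The deposited −log10 p-values and −log10 q-values belong to the summit, and the deposited score is 10 times the latter without decimals. Deposited q-values reached up to 0.0479 (control) and 0.0499 (knockdown).

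Peaks of chromosome Y (135 control, 71 knockdown) were left out. There were 0 overlaps within either list. Coordinates are counted from 1. Whole-number summit reads and backgrounds were solved from fold and p-value by a Poisson tail, with a largest error of 4.15e-05 in −log10 p. The overlap rule was tested on simulated lists with planted merged and split peaks. The recovery was tested on values computed with the same formula. That checks the solving only, not whether the deposited values follow the formula. Backgrounds started at 0.240 reads (control) and 0.322 reads (knockdown), and the shortest peaks, 94 and 89 bp, were taken as the read extension for the read numbers. Analyses used Python 3.11.15, pandas 2.3.3 and SciPy 1.17.1.

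The members and alternatives were chosen with earlier results of these data known. Named regions are, per class, the 4 with most constituents (ties by fold), the 4 of highest fold, the 2 with the longest gap, and 2 on each side of the overlap limit. A genome sequence and annotation of build hg19 were not used here, so regions carry neither gene names nor sequences.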

Additional observations from a re-analysis of the deposited data

How the results depend on the processing

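No paired analysis was possible because each group has 1 library, and for the same reason no replicate could be left out. Merged peaks, 1133 as reported, numbered 542 at a q-value of at most 1e-05 and 698 at a fold of at least 5; the other 6 alternatives gave between 764 and 958. Split peaks, 791 as reported, numbered 520 with 50% of each constituent covered, 366 at the q-value limit, 470 at the fold limit, 327 with the depth-equivalent summit minimum and 518 with peaks within 100 bp joined first. The merged share of both classes, 58.9%, became 61.1% with 50 bp of overlap, 62.1% with 50% covered, 61.7% with constituent summits inside the member, 51.1% with lists of equal length and 70.0% with the summit minimum. It stayed above 50% under all 8 alternatives, but with an interval that includes 50% for lists of equal length. Close control pairs joined, 23.8%, were 19.99%, 17.8% and 18.2% under the same 3 overlap rules. They were 29.5% at the q-value limit, 27.7% at the fold limit, 28.4% with lists of equal length and 28% with the summit minimum. Close knockdown pairs joined, 19.0%, were 14.7%, 12.5% and 13% under the overlap rules and 20.5% at the q-value limit. Stricter overlap and limits remove constituents by construction; beyond that the cause was not tested. Median gaps ranged from 94 to 134 bp in merged and from 90.5 to 130 bp in split peaks. Of the 20 regions named for constituents, fold or gap, 5 stayed members under every alternative, 18 with 50 bp of overlap and 9 at the q-value limit. The list limits decide many weak constituents, whose median summit was 9 reads.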
